A study of Mus musculus with 12 samples.

Results

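The 10 genes described here encode proteins through which the kidney sets blood phosphate, calcium and active vitamin D: Kl, Cyp24a1, Cyp27b1, Vdr, Slc34a1, Slc34a3, Slc20a2, Trpv5, Pth1r and Casr. They were taken by symbol from a table of estimated counts with 24452 symbols, and all 10 were present with counts in each of the 12 libraries. The libraries came from kidney cortex of C57BL/6 mice labelled adult and male, with 3 libraries in each of 4 groups. GN_captopril and GN_water had glomerulonephritis (GN), inflammation of the filtering units of the kidney, raised by intraperitoneal horse spleen apoferritin (10 mg, 5 times a week) with lipopolysaccharide as adjuvant (100 micrograms, 3 times a week) for 6 weeks. Control_captopril and Control_water received saline by the same route, and kidneys were collected at week 9. The captopril groups were labelled as given captopril, an inhibitor of angiotensin-converting enzyme, and the other groups as given water. The dose of captopril was not in the labels. Each library title joined a pair of numbers. Whether a library was 1 animal or a pool was not stated, so p-values measure the spread between these libraries only. The series title names attenuation of interstitial injury by inhibition of the enzyme in chronic GN as the subject of the study.

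Klotho, the product of Kl, is made mainly in the distal convoluted tubule and also in the proximal tubule, where it forms a receptor for the bone hormone FGF23 together with FGF receptors. FGF23 and parathyroid hormone both reduce phosphate uptake by the proximal tubule, and they act in opposite directions on the enzyme that activates vitamin D. Active vitamin D acts through the receptor Vdr and induces Cyp24a1, the enzyme that degrades it. Loss of kidney klotho is a well known feature of chronic kidney disease.

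The markers in the libraries did not follow all labels. The summed level of the Y-linked genes Ddx3y, Kdm5d, Uty and Eif2s3y was 124 to 129 CPM (counts scaled to library size, with TMM) in GN_captopril and 121 to 144 CPM in Control_water, but at most 0.0458 CPM in GN_water and 0.101 CPM in Control_captopril. Xist, the RNA of the inactive X chromosome, showed the reverse, with 181 to 212 CPM in GN_water and 314 to 375 CPM in Control_captopril, against at most 0.182 CPM in the other groups. The summed level of 8 androgen or female biased kidney genes averaged 30620 CPM in GN_captopril, 7554 CPM in GN_water, 9525 CPM in Control_captopril and 32880 CPM in Control_water. Ren1, the renin gene, which inhibition of the enzyme is known to raise, was added as a check after its values had been seen. It averaged 543 ± 132 CPM in GN_captopril, 24.8 ± 4.90 CPM in GN_water, 74.8 ± 10.1 CPM in Control_captopril and 1340 ± 395 CPM in Control_water (SD, n = 3 each), so the controls labelled captopril were below the controls labelled water. Groups are therefore called by their labels throughout, and the GN change of the 10 genes is also given between the groups that shared sex-linked markers. Summed levels of 8 adrenal cortex markers were 355 CPM in Control_captopril replicate 3, 119 CPM in GN_captopril replicate 3, 19.2 CPM in GN_captopril replicate 2 and 6.15 CPM in Control_captopril replicate 1, against at most 1.43 CPM elsewhere. Summed levels of 5 fat markers ran from 0.399 to 106 CPM in GN_captopril, 1.63 to 47.6 CPM in GN_water, 19.2 to 48.7 CPM in Control_captopril and 6.55 to 26.9 CPM in Control_water. All 7 genes of whole kidney tissue, from glomerulus to collecting duct, were detected in every library, at 19.7 CPM or more.

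Promoter sequences are shown for 3 genes that fell in GN on average (Kl, Vdr and Slc34a1) and for Slc34a3, a phosphate cotransporter. For Slc34a3 the GN change under captopril minus the GN change under water was negative, and for Slc34a1 it was positive. The windows are RefSeq sequences of the GRCm38.p6 build, 250 bases before and 50 bases after an annotated start. They are written 5′ to 3′ on the strand of the gene. The Kl window is chr5:150952357-150952656 on the plus strand, that of Vdr is chr15:97908247-97908546 on the minus strand, that of Slc34a1 is chr13:55399398-55399697 on the plus strand and that of Slc34a3 is chr2:25234185-25234484 on the minus strand. Capitals mark matches on either strand to the motifs TATAAA (known as the TATA box), GGGCGG (known as the GC box), GTTAAT (a core motif of the tubular factor HNF1), AGGTCA (a core motif of nuclear receptors such as Vdr) and AGAACA (a core motif of the androgen receptor).

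Kl: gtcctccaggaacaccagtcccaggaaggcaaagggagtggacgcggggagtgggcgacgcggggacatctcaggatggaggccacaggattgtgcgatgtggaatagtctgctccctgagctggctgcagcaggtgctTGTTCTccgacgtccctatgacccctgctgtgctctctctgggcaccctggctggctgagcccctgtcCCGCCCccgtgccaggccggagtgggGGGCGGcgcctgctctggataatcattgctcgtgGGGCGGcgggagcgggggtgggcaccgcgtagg

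Vdr: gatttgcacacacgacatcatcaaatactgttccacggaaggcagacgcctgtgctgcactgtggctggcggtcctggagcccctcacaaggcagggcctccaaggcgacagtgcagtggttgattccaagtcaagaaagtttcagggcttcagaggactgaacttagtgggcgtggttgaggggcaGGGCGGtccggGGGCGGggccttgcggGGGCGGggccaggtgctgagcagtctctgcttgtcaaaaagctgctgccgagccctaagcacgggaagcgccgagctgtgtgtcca

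Slc34a1: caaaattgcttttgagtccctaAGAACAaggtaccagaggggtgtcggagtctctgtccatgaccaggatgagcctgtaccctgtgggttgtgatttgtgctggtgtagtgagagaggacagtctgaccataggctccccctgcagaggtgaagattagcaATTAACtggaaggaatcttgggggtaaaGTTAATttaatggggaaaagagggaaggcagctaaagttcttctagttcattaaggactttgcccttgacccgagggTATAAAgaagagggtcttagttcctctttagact

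Slc34a3: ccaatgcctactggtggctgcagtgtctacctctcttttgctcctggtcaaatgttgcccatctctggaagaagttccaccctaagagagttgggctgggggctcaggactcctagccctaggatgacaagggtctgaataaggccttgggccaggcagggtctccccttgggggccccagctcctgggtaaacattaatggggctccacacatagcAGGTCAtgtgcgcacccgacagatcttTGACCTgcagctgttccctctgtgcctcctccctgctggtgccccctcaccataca

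The marked matches did not overlap. Kl held 3 GC boxes and 1 androgen receptor motif, and Vdr held 3 GC boxes. Slc34a1 held 2 HNF1 motifs, 1 androgen receptor motif and 1 match to TATAAA, which lies at position 17 after the annotated start and not before it, where a TATA box would be. The windows of Slc34a1 and Vdr lie inside the gene spans given below, so their starts are not the outermost ones of those spans. Slc34a3 held 2 nuclear receptor motifs, at positions -33 and -6 from its start on opposite strands. Of 27025 RefSeq promoter windows of this length, 14.2% held TATAAA, 35.9% GGGCGG, 7.2% GTTAAT, 16% AGGTCA and 19.0% AGAACA. Promoter entries were matched for 8 of the 10 genes, all but Cyp24a1 and Slc20a2.

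Levels of the genes spanned a wide range per length. The mean over the 4 groups was highest for Slc34a1, the main phosphate cotransporter of the proximal tubule brush border, at 1189 CPM per kb of annotated exon. Pth1r, the receptor of parathyroid hormone, followed at 259 CPM per kb. Kl had 67.2 CPM per kb and Vdr 58.4 CPM per kb, with ranges over the groups that overlapped. Next came Slc34a3, a brush border cotransporter that contributes less phosphate uptake in the mouse, at 31.8 CPM per kb, and Cyp24a1 at 25.5 CPM per kb, whose libraries reached above and below the range of Slc34a3. Casr, the calcium-sensing receptor of the thick ascending limb, had 10.4 CPM per kb and Slc20a2, a phosphate cotransporter found in many cell types, 10.1 CPM per kb. At the low end were Cyp27b1, the enzyme that makes active vitamin D, at 5.0 CPM per kb and Trpv5, the calcium channel of the distal tubule, at 4.94 CPM per kb. Within each of these last pairs the order changed between groups. Annotated exon lengths (GENCODE M21) need not be those used in counting.

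In GRCm38 the genes lie apart from each other. On the plus strand are Kl at chr5:150952607-150993817, Cyp27b1 at chr10:127048250-127053006, Slc34a1 at chr13:55398187-55415592 and Slc20a2 at chr8:22476788-22569612. On the minus strand are Vdr at chr15:97854425-97910630, Trpv5 at chr6:41652173-41680769, Pth1r at chr9:110722085-110747145, Casr at chr16:36493696-36562141, and on chromosome 2 Cyp24a1 at chr2:170482708-170497145 and Slc34a3 at chr2:25228898-25234364. Protein-coding genes on the opposite strand overlap Cyp24a1 (Pfdn4, 718 bases), Slc34a1 (Pfn3, 545 bases), Slc20a2 (Smim19, 95 bases) and Pth1r (Myl3, 5285 bases). The strand setting of the counting is not given in the sources used here, so reads of such partners cannot be told apart.

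Within groups, the vitamin D enzymes varied most. The SD of log2 CPM within groups was 0.88 for Cyp24a1 and 0.61 for Cyp27b1, against a median of 0.12 over all 14618 genes tested, which placed them at percentiles 99.1 and 97.3 of all genes. Pth1r was the steadiest of the 10, with an SD of 0.067 at percentile 14.4. Changes in Cyp24a1 and Cyp27b1 were therefore measured with SEs of 0.28 to 0.80 on the log2 scale, the largest of the 10 genes in each comparison.

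In GN averaged over the drink labels, 5 of the 10 genes fell and none rose. They were Kl, Vdr, Slc34a1, Pth1r and Casr. Casr fell by 33.6%, Kl fell by 25.2% and Slc34a1 fell by 14.1%. Of all 14618 genes tested, 30.9% passed the test in this comparison, 16.3% higher and 14.6% lower (edgeR quasi-likelihood test, Benjamini-Hochberg adjusted p under 0.05). Higher calls among the 10 genes numbered 0 also at an unadjusted p under 0.05 and by DESeq2. Their median log2 fold change was -0.24, against -0.01 for all genes. In whole cortex, fewer cells of a type and less RNA per cell cannot be told apart.

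**Figure D1:**
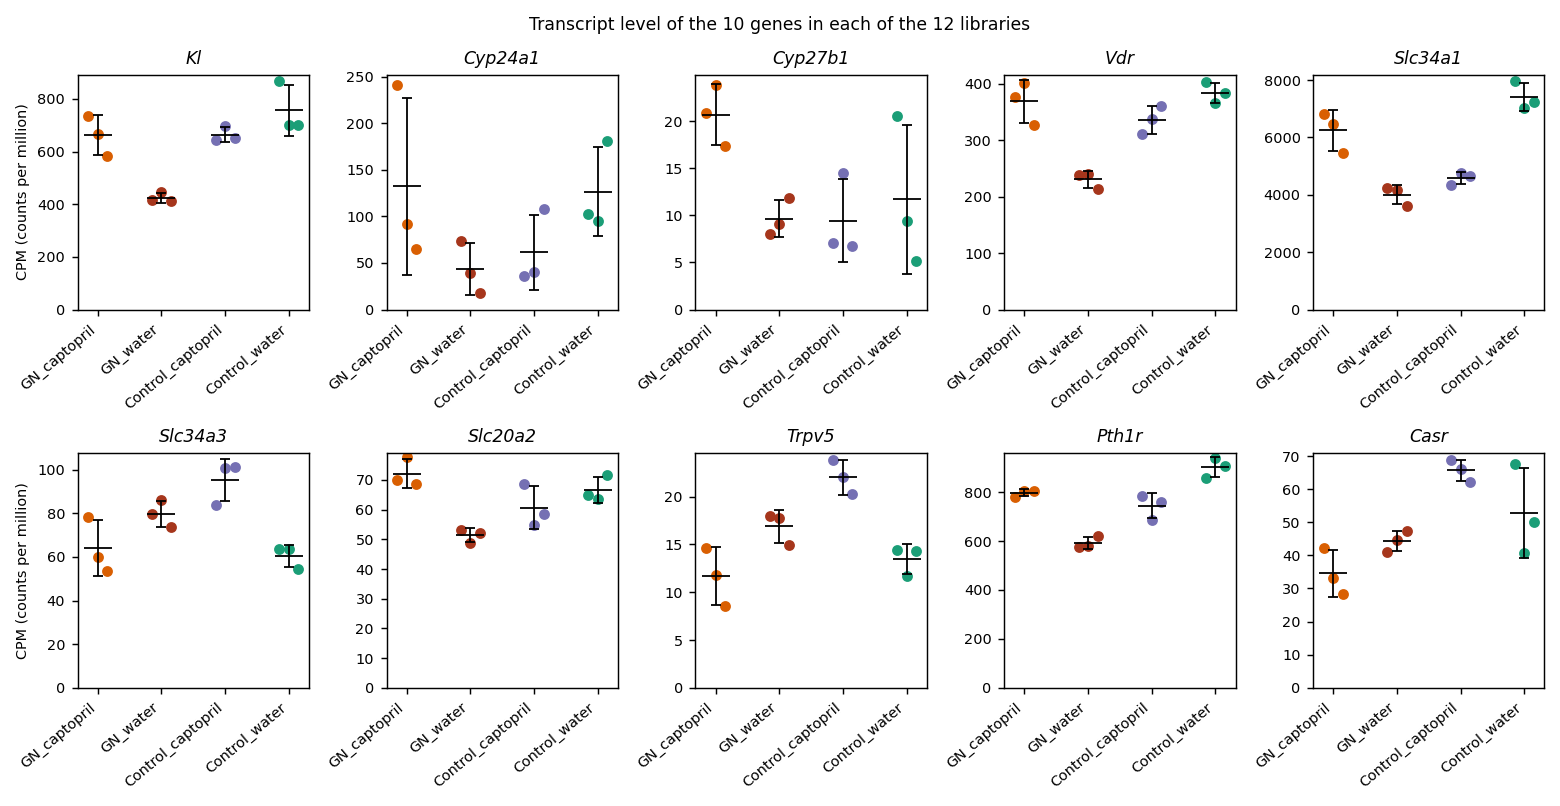
Level in CPM (vertical axes, starting at 0) of each of the 10 genes in the 12 libraries (points), by group, with the group mean and SD (bars). Kl, Vdr, Slc20a2 and Pth1r are lowest in GN_water (means of 425, 231, 51.4 and 591 CPM), Slc34a1 separates GN_captopril and Control_water from the other groups, and Cyp24a1 spreads widely within groups.

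Among the hormone receptors and klotho, Kl read 734, 667 and 583 CPM in GN_captopril, 415, 447 and 413 CPM in GN_water, 644, 697 and 651 CPM in Control_captopril and 869, 699 and 703 CPM in Control_water. The GN_water libraries were below all others, and the GN_captopril libraries lay within or just below the range of the controls. Kl fell by 0.42 ± 0.07 (SE) on the log2 scale in GN on average (adjusted p = 0.000364, edgeR). Vdr read 377, 402 and 327 CPM in GN_captopril, 238, 240 and 214 CPM in GN_water, 310, 338 and 360 CPM in Control_captopril and 402, 367 and 384 CPM in Control_water. Again GN_water stood below every other library, while GN_captopril overlapped both control groups. Vdr fell by 0.30 ± 0.06 on the log2 scale (adjusted p = 0.00142, edgeR).

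Pth1r, through which parathyroid hormone withdraws phosphate cotransporters from the brush border, read 781, 806 and 804 CPM in GN_captopril, 576, 578 and 619 CPM in GN_water, 784, 688 and 761 CPM in Control_captopril and 857, 938 and 908 CPM in Control_water. GN_water was below all controls, and GN_captopril was below Control_water but not below Control_captopril. Its average fall was 0.26 ± 0.04 on the log2 scale (adjusted p = 0.000493, edgeR). Casr read 42.2, 33.2 and 28.2 CPM in GN_captopril, 41.1, 44.6 and 47.3 CPM in GN_water, 68.7, 66.0 and 62.3 CPM in Control_captopril and 67.5, 40.8 and 50.03 CPM in Control_water. Every GN library was below the Control_captopril libraries. Control_water replicate 2 lay within the GN range and replicate 3 just above it. Casr had the largest fall of the 10 genes, 0.59 ± 0.11 on the log2 scale (adjusted p = 0.00156, edgeR).

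The vitamin D enzymes did not pass the test in GN on average. Cyp24a1 read 241, 91.6 and 64.7 CPM in GN_captopril, 73.4, 39.3 and 17.4 CPM in GN_water, 35.6, 40.1 and 108 CPM in Control_captopril and 102, 95.5 and 181 CPM in Control_water. Its log2 fold change was -0.21 ± 0.40 (adjusted p = 0.732, edgeR), and the 95% interval, -1.06 to 0.64, left changes of more than 1 log2 unit downward possible. Without GN_captopril replicate 1 the estimate was -0.59 and without Control_captopril replicate 3 it was 0.13, the lowest and highest when 1 library was left out. Cyp27b1 read 20.9, 23.9 and 17.4 CPM in GN_captopril, 8.02, 9.05 and 11.8 CPM in GN_water, 7.04, 14.5 and 6.73 CPM in Control_captopril and 20.5, 9.41 and 5.16 CPM in Control_water. The GN_captopril libraries were above all others except Control_water replicate 1, which read as high as them. The log2 fold change was 0.41 ± 0.28 (adjusted p = 0.288, edgeR), and without Control_water replicate 1 it was 0.76 with an adjusted p of 0.0241.

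Of the transporters, only Slc34a1 passed the test in GN on average. It read 6823, 6464 and 5452 CPM in GN_captopril, 4223, 4178 and 3618 CPM in GN_water, 4338, 4757 and 4651 CPM in Control_captopril and 7976, 7016 and 7234 CPM in Control_water. Each GN group lay below the control group that shared its sex-linked markers, while GN_captopril lay above Control_captopril. The average fall was 0.22 ± 0.06 on the log2 scale (adjusted p = 0.0152, edgeR). This call was lost when libraries were scaled by their totals alone (log2 fold change -0.15, adjusted p = 0.08) and without the 2 libraries with the most adrenal transcripts (-0.17, adjusted p = 0.0591). Slc34a3 averaged 64.1 ± 12.8 CPM in GN_captopril, 79.7 ± 6.17 CPM in GN_water, 95.2 ± 9.79 CPM in Control_captopril and 60.6 ± 5.10 CPM in Control_water (SD, n = 3 each), with a log2 fold change of -0.09 and a 95% interval from -0.27 to 0.10. Slc20a2 had a log2 fold change of -0.06 with an interval from -0.19 to 0.07. Trpv5 had a log2 fold change of -0.29 ± 0.11 (adjusted p = 0.055, edgeR) and passed the test by DESeq2 (adjusted p = 0.0323). It also passed without Control_water replicate 2 (-0.34, adjusted p = 0.0387), GN_captopril replicate 1 (-0.39, adjusted p = 0.00993) or GN_water replicate 1 (-0.34, adjusted p = 0.0476).

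**Figure D2:**
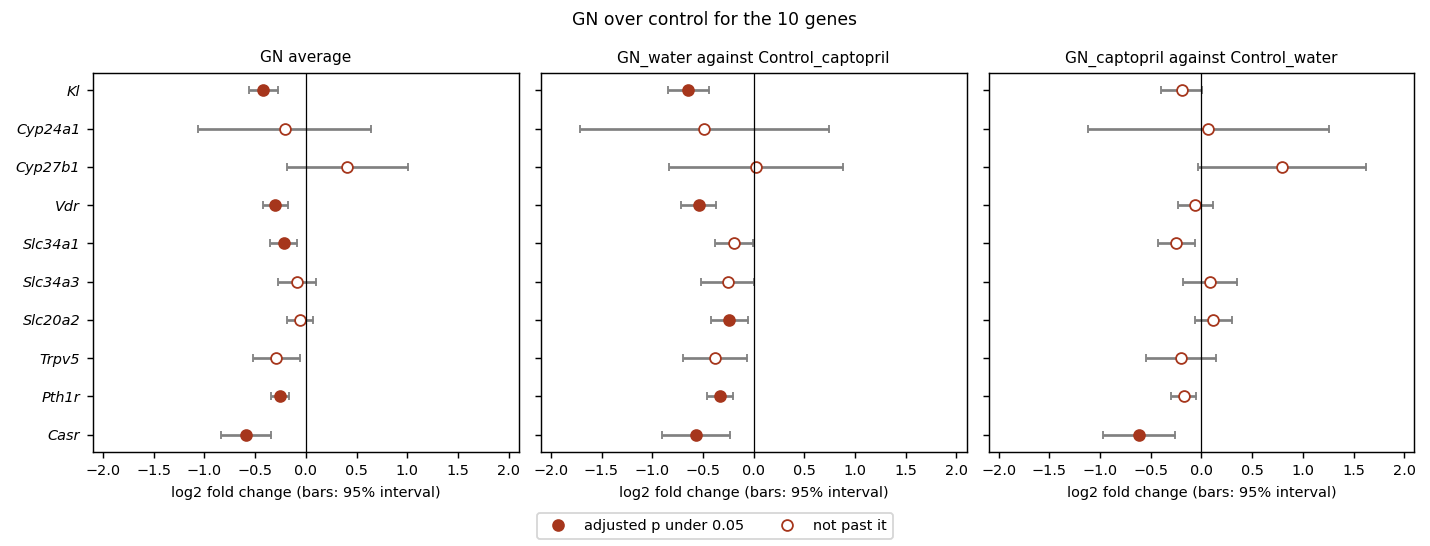
Log2 fold change of GN over control for each gene (points) with its 95% interval (bars), averaged over the drink labels (left) and between groups with the same sex-linked markers (middle and right). Filled points passed an adjusted p of 0.05. Casr is filled in all 3 panels, at -0.59, -0.57 and -0.62, whereas Kl and Vdr lie farther from 0 in the middle panel than in the right one.

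Between groups with the same sex-linked markers, more of the 10 genes passed the test in the groups with Xist than in those with Y-linked transcripts. The share of all genes that passed was also higher in the groups with Xist (30.1% against 12.1%). Both comparisons use the libraries of the GN average, so they are not separate evidence. In GN_water against Control_captopril, 5 of the 10 genes fell and 0 rose, where 30.1% of all genes passed (16.9% higher and 13.2% lower), and 0 rose at an unadjusted p under 0.05 or by DESeq2. Kl fell by 0.64 ± 0.09, Vdr by 0.54 ± 0.08 and Pth1r by 0.33 ± 0.06 on the log2 scale (adjusted p = 0.000208, 0.000251 and 0.000882, edgeR). Casr fell by 0.57 ± 0.16 (adjusted p = 0.015, edgeR), and this call was lost without Control_captopril replicate 1 (adjusted p = 0.0504). Slc20a2 averaged 51.4 ± 2.27 CPM in GN_water and 60.6 ± 7.23 CPM in Control_captopril (SD, n = 3 each) and fell by 0.24 ± 0.08 (adjusted p = 0.0454, edgeR). Without Control_captopril replicate 1, the highest of its group at 68.7 CPM, the change in Slc20a2 was -0.14 (adjusted p = 0.207), and the call was lost as well without any of 4 other libraries (Control_captopril replicate 3, GN_water replicate 2, Control_water replicate 2 or GN_captopril replicate 1). The Slc20a2 call was also lost with library totals alone (-0.15, adjusted p = 0.185, edgeR). The same held without both libraries with the most adrenal transcripts (-0.27, adjusted p = 0.059, edgeR). Trpv5 (-0.38, adjusted p = 0.0621) passed without GN_captopril replicate 1 or 3 (adjusted p = 0.0311 and 0.0174) and by DESeq2 (0.0396). Slc34a3 (-0.26) passed without GN_captopril replicate 1 (adjusted p = 0.0451), and Slc34a1 (-0.19) without GN_water replicate 1 (-0.29, adjusted p = 0.0457).

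In GN_captopril against Control_water, Casr alone passed the test, with a fall of 0.62 ± 0.16 on the log2 scale (adjusted p = 0.028, edgeR). Here 12.1% of all genes passed (7.05% higher and 5.02% lower), and 0 of the 10 genes rose, at an unadjusted p under 0.05 or by DESeq2 as well. The Casr call was lost without Control_water replicate 1 (log2 fold change -0.39, adjusted p = 0.0955), GN_captopril replicate 2 (-0.59, adjusted p = 0.0811) or GN_captopril replicate 3 (-0.50, adjusted p = 0.0989). Slc34a1 (-0.25, adjusted p = 0.0804) and Pth1r (-0.18, adjusted p = 0.0675) did not pass. Slc34a1 passed without GN_captopril replicate 1 (-0.32, adjusted p = 0.0466), and Pth1r without Control_water replicate 1 (-0.21, adjusted p = 0.0496), without Control_captopril replicate 2 (adjusted p = 0.0485) and by DESeq2 (0.0289). Kl changed by -0.20 with a 95% interval from -0.40 to 0.00, and Vdr by -0.06 with an interval from -0.23 to 0.11. Cyp27b1 had a log2 fold change of 0.79 ± 0.38 (adjusted p = 0.201, edgeR), and of 1.504 without Control_water replicate 1 (adjusted p = 0.0219).

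The GN change differed between the drink labels for all 10 genes. This difference, the GN change under captopril minus the GN change under water, passed the test for 50.7% of all genes (23.6% higher and 27.1% lower), so a call is common here. It was positive for 7 of the 10 genes and negative for Slc34a3, Trpv5 and Casr. The same contrast, halved, is the mean of the groups with Y-linked transcripts (GN_captopril and Control_water) over that of the groups with Xist (GN_water and Control_captopril). Ren1 split the same way, with means of 543 and 1340 CPM in GN_captopril and Control_water. Its means were 24.8 and 74.8 CPM in GN_water and Control_captopril. An interaction of disease with drink, the difference between libraries with unlike sex-linked markers and a drink other than labelled cannot be told apart.

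Slc34a1 had the smallest adjusted p of the 10 genes in this contrast. It was 5452 to 7976 CPM in the 6 libraries with Y-linked transcripts and 3618 to 4757 CPM in the 6 libraries with Xist, without overlap. How many of all genes separate these libraries in this way was not counted. The difference of the GN changes of Slc34a1 was 1.33 ± 0.12 on the log2 scale (adjusted p = 1.17e-06, edgeR). Halved, this is a level 1.59-fold higher in the libraries with Y-linked transcripts. Slc34a3 ran the other way. It read 78.4, 60.1 and 53.7 CPM in GN_captopril, 79.6, 85.9 and 73.5 CPM in GN_water, 83.9, 101 and 101 CPM in Control_captopril and 63.5, 63.5 and 54.7 CPM in Control_water, with overlap through GN_captopril replicate 1 only. Its difference was -0.97 ± 0.17 (adjusted p = 0.000418, edgeR). The ratio of Slc34a1 to Slc34a3 CPM was thus 98.6 ± 10.5 in GN_captopril, 50.3 ± 2.41 in GN_water, 48.3 ± 2.98 in Control_captopril and 123 ± 11.2 in Control_water (SD, n = 3 each). Slc20a2 had a difference of 0.63 ± 0.12 (adjusted p = 0.000678, edgeR), and of 0.37 with library totals alone (adjusted p = 0.0145).

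**Figure D3:**
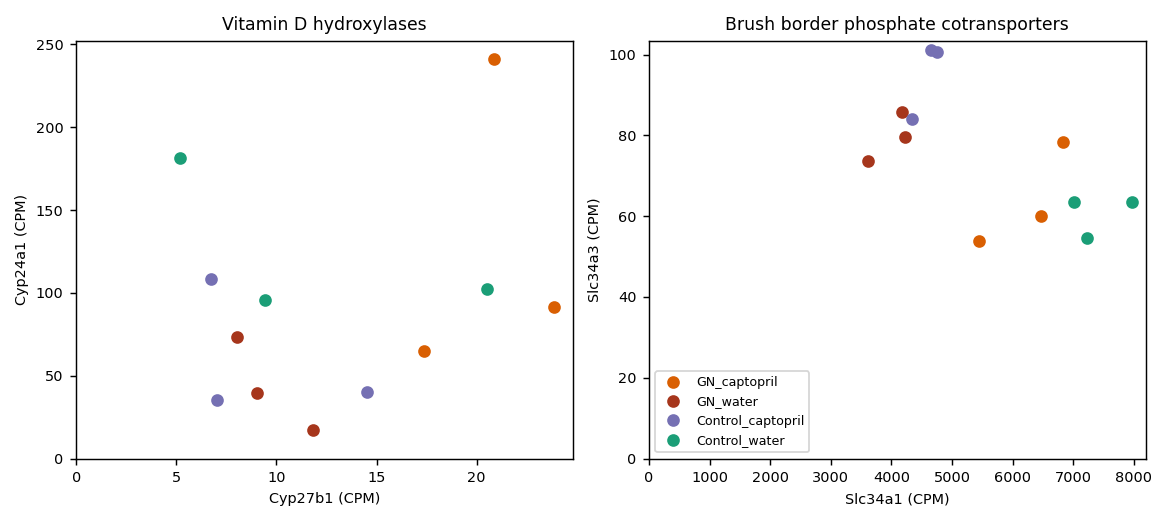
Left, Cyp24a1 against Cyp27b1, and right, Slc34a3 against Slc34a1, in CPM on linear axes from 0, with 1 point per library coloured by group. On the right, GN_captopril and Control_water lie at 5452 CPM or more of Slc34a1 and the other groups at 4757 CPM or less; on the left the groups mix.

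Trpv5 was also without overlap, at 8.54 to 14.7 CPM in the libraries with Y-linked transcripts and 14.9 to 23.8 CPM in those with Xist. The nearest values of the 2 sets were close. Its difference was -1.24 ± 0.21 on the log2 scale (adjusted p = 0.000336, edgeR). With the share of all genes not counted, the separation cannot be called particular to Slc34a1 and Trpv5. The differences of Kl, Vdr and Pth1r were 0.83 ± 0.13, 0.87 ± 0.11 and 0.71 ± 0.08 (adjusted p = 0.000161, 3.05e-05 and 1.17e-05, edgeR). With library totals alone that of Pth1r was 0.45 (adjusted p = 0.000351). Cyp24a1 had the largest estimate, 2.65 ± 0.80 (adjusted p = 0.014, edgeR), with a 95% interval from 0.93 to 4.38. Cyp27b1 differed by 1.45 ± 0.55 (adjusted p = 0.0421, edgeR), and without Control_water replicate 1 by 0.74 (adjusted p = 0.187). That call was lost too without GN_captopril replicate 1 or 2, Control_captopril replicate 1 or 3, or GN_water replicate 1 or 2 (log2 differences 1.27 to 1.45), and by DESeq2 (adjusted p = 0.0743). Casr differed by -0.67 ± 0.23 (adjusted p = 0.0245, edgeR). The Casr call was lost without Control_water replicate 2 or 3, GN_captopril replicate 2 or 3, Control_captopril replicate 1, or GN_water replicate 2 or 3, with adjusted p of 0.0505 to 0.0718.

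**Figure D4:**
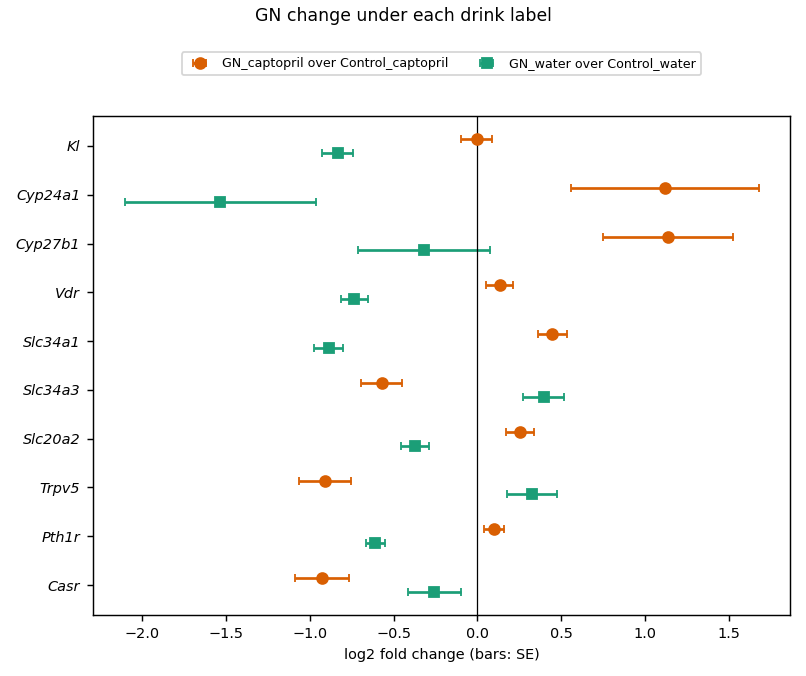
Log2 fold change (horizontal axis, with SE) of GN over control within the captopril label (circles) and within the water label (squares) for each gene. The pairs lie on opposite sides of 0 for every gene but Kl and Casr: Kl is near 0 (-0.01) under captopril and at -0.83 under water, and Casr is at -0.93 and -0.26.

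Within one drink label, each GN group was set against controls with unlike sex-linked markers. In GN_water against Control_water, 51.2% of all genes passed (27.4% higher and 23.9% lower), and 7 of the 10 did. Slc34a1 fell by 0.89, Kl by 0.83, Vdr by 0.74, Pth1r by 0.61 and Slc20a2 by 0.37 on the log2 scale, with adjusted p of 0.00229 or less (edgeR). Cyp24a1 fell by 1.54 ± 0.57 (adjusted p = 0.0376, edgeR), a call lost without Control_water replicate 3 (-1.19, adjusted p = 0.134), GN_water replicate 2 (-1.50, adjusted p = 0.0882) or GN_water replicate 3 (-1.21, adjusted p = 0.11). Slc34a3 rose by 0.40 ± 0.12 (adjusted p = 0.0155, edgeR), a call lost without Control_water replicate 3 (0.33, adjusted p = 0.0662), GN_water replicate 1 (0.35, adjusted p = 0.0579) or GN_water replicate 2 (0.30, adjusted p = 0.0906). Scaled by library totals alone, the changes were -0.17 for Slc20a2 (adjusted p = 0.0862), -1.34 for Cyp24a1 (adjusted p = 0.0574) and 0.60 for Slc34a3 (adjusted p = 0.000911). Trpv5 (0.33, adjusted p = 0.0866) passed without GN_captopril replicate 1 or 3 (adjusted p = 0.0471 and 0.0294), and Casr (-0.26, adjusted p = 0.192) without Control_water replicate 2 (-0.41, adjusted p = 0.0356).

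In GN_captopril against Control_captopril, 39.8% of all genes passed (20.5% higher and 19.3% lower), and 6 of the 10 did, 3 in each direction. Slc34a1 rose by 0.45 ± 0.09 (adjusted p = 0.00117, edgeR). Casr fell by 0.93 ± 0.16, Trpv5 by 0.91 ± 0.15 and Slc34a3 by 0.57 ± 0.12 (adjusted p = 0.000532, 0.000405 and 0.00232, edgeR). Cyp27b1 rose by 1.14 ± 0.39 (adjusted p = 0.0325, edgeR) and Slc20a2 by 0.25 ± 0.08 (adjusted p = 0.0292, edgeR). The Cyp27b1 call was lost without GN_captopril replicate 1 or 2 or Control_captopril replicate 1 or 3 (log2 fold changes 0.95 to 1.13, adjusted p 0.0633 to 0.114) and by DESeq2 (adjusted p = 0.0546). The Slc20a2 call was lost without GN_captopril replicate 2, Control_captopril replicate 2 or Control_captopril replicate 3 (0.18 to 0.22, adjusted p 0.0902 to 0.128), with library totals alone (adjusted p = 0.0696) and with only these 2 groups fitted (adjusted p = 0.0577). Kl changed by -0.01, with a 95% interval from -0.21 to 0.19. Cyp24a1 (1.12, adjusted p = 0.131) passed without Control_captopril replicate 3 (1.80, adjusted p = 0.0337), and Vdr (0.13) without GN_captopril replicate 3 (0.21, adjusted p = 0.0443).

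Between the drink labels, GN_captopril against GN_water had the most calls, 8 of the 10, where 45.1% of all genes passed (19.6% higher and 25.5% lower). Kl, Vdr and Slc34a1 were 1.56-fold, 1.60-fold and 1.56-fold higher in GN_captopril, Slc20a2 1.41-fold and Pth1r 1.35-fold (adjusted p of 0.000425 or less, edgeR). Cyp24a1 was 3.04-fold higher (adjusted p = 0.0353, edgeR), and without GN_captopril replicate 1, at 241 CPM, its log2 fold change was 0.85 (adjusted p = 0.231), against 1.61 with it. That call was lost as well without GN_water replicate 2 (1.58, adjusted p = 0.0874) or replicate 3 (1.28, adjusted p = 0.105). Cyp27b1 was 2.16-fold higher (adjusted p = 0.032, edgeR), a call lost without GN_captopril replicate 1 or 2 or GN_water replicate 1 or 2 (log2 fold changes 0.99 to 1.11, adjusted p 0.0649 to 0.0974) and by DESeq2 (adjusted p = 0.0528). Trpv5 fell by 0.53 ± 0.15 on the log2 scale (adjusted p = 0.0137, edgeR), a call lost without GN_water replicate 1 (-0.43, adjusted p = 0.0715) or replicate 2 (-0.44, adjusted p = 0.0666). Slc34a3 (-0.31, adjusted p = 0.0506) passed without GN_captopril replicate 1 (-0.48, adjusted p = 0.00311) or Control_captopril replicate 1 (-0.32, adjusted p = 0.0425). Casr (-0.36, adjusted p = 0.0872) passed without GN_captopril replicate 1 (-0.53, adjusted p = 0.0254) or Control_water replicate 1 or 2 (adjusted p = 0.0306 and 0.0483). These groups share a disease label but not sex-linked markers.

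Control_captopril against Control_water also paired unlike markers, with 32.4% of all genes past the test (15.4% higher and 17% lower). Trpv5 rose by 0.71 ± 0.15 and Slc34a3 by 0.65 ± 0.12, while Slc34a1 fell by 0.69 ± 0.09 and Pth1r by 0.28 ± 0.06 (adjusted p = 0.00261, 0.00111, 4.41e-05 and 0.00282, edgeR). With library totals alone the change of Pth1r was -0.16 (adjusted p = 0.0379). Kl changed by -0.19 (adjusted p = 0.139) and Vdr by -0.19 (adjusted p = 0.0832). Vdr passed without GN_captopril replicate 3 (adjusted p = 0.0434), Casr without Control_water replicate 1 (0.53, adjusted p = 0.00973, against 0.31 with it), Slc20a2 without Control_captopril replicate 1 (-0.24, adjusted p = 0.0364) and Cyp24a1 without Control_captopril replicate 3 (-1.74, adjusted p = 0.047). For Slc34a1, Slc34a3, Trpv5 and Pth1r, the controls alone thus differed, and there too drink label and sex-linked markers cannot be told apart. Averaged over disease, with 6.51% of all genes past the test (3.17% higher and 3.34% lower), captopril against water gave a call for Vdr only, with a rise of 0.24 ± 0.06 (adjusted p = 0.0252, edgeR). It was lost without any of 5 libraries (Control_water replicate 2 or 3, GN_captopril replicate 1 or 2, or Control_captopril replicate 3), with adjusted p of 0.0539 to 0.0662. Kl was at 0.22 ± 0.07 (adjusted p = 0.059, edgeR) and passed without Control_water replicate 1 (0.28, adjusted p = 0.0118) or GN_captopril replicate 3 (0.27, adjusted p = 0.0223) and by DESeq2 (0.0136). Slc20a2 (0.18) passed without Control_captopril replicate 2 (0.21, adjusted p = 0.0498).

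Marker levels of the nephron segments also differed between groups. The 12 proximal tubule markers summed to 12320 to 13260 CPM in GN_captopril, 9359 to 10270 CPM in GN_water, 10790 to 11370 CPM in Control_captopril and 13410 to 13800 CPM in Control_water, the same order of groups as Slc34a1. In GN on average 4 of these 12 fell and 1 rose. Set against this sum, Slc34a1 was 49.1% ± 4.16 in GN_captopril, 40.7% ± 1.80 in GN_water, 41.1% ± 0.829 in Control_captopril and 54.6% ± 2.87 in Control_water (SD, n = 3 each). Vdr was 2.90% ± 0.276 of the sum in GN_captopril, 2.34% ± 0.0713 in GN_water, 3.01% ± 0.164 in Control_captopril and 2.83% ± 0.0909 in Control_water, so GN_water remained lowest. Pth1r was 6.28% ± 0.34 in GN_captopril, 6.02% ± 0.525 in GN_water, 6.69% ± 0.613 in Control_captopril and 6.64% ± 0.398 in Control_water, and all 4 groups overlapped. Slc34a3 was 0.50% ± 0.08 of the sum in GN_captopril and 0.81% ± 0.05 in GN_water. It was 0.85% ± 0.066 in Control_captopril and 0.45% ± 0.037 in Control_water. These ratios have no test, and the part of the markers in the results was not tested.

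The 6 distal convoluted tubule markers summed to 3085 to 3303 CPM in GN_captopril, 3194 to 3355 CPM in GN_water, 3879 to 4215 CPM in Control_captopril and 3341 to 3599 CPM in Control_water, and 5 of the 6 fell in GN on average. Kl was 20.9% ± 1.78 of that sum in GN_captopril and 12.9% ± 0.499 in GN_water, again the lowest group. It was 16.2% ± 0.659 in Control_captopril and 22.0% ± 3.53 in Control_water. Set against the proximal tubule sum, Kl was 5.19% ± 0.415 in GN_captopril and 4.32% ± 0.252 in GN_water. There it was 5.96% ± 0.177 in Control_captopril and 5.57% ± 0.631 in Control_water. GN_water was lowest with both sums, but the order of the other groups depended on the sum used. The 6 thick ascending limb markers summed to 3311 to 4122 CPM in GN_captopril, 5794 to 7269 CPM in GN_water, 5821 to 7370 CPM in Control_captopril and 4111 to 5125 CPM in Control_water, and 3 of the 6 fell in GN on average. Casr was 0.918% ± 0.205 of that sum in GN_captopril, 0.687% ± 0.0718 in GN_water, 1.02% ± 0.102 in Control_captopril and 1.14% ± 0.309 in Control_water. GN_water did not overlap the control groups in this ratio, and GN_captopril overlapped both. The 8 connecting tubule and collecting duct markers summed to 554 to 636 CPM in GN_captopril, 819 to 949 CPM in GN_water, 726 to 823 CPM in Control_captopril and 649 to 746 CPM in Control_water, and 4 of the 8 fell and 1 rose in GN on average. Trpv5 was 2.01% ± 0.585 of that sum in GN_captopril and 1.92% ± 0.31 in GN_water. It was 2.81% ± 0.0718 in Control_captopril and 1.93% ± 0.337 in Control_water, so Control_captopril alone stood above the rest. Set against the distal convoluted tubule sum, Trpv5 was 0.37% ± 0.085 in GN_captopril and 0.51% ± 0.06 in GN_water. There it was 0.54% ± 0.068 in Control_captopril and 0.39% ± 0.059 in Control_water. Every segment marker had counts in every library.

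Markers of leukocytes and of tubular injury also differed between groups. The 10 leukocyte markers all rose in GN on average and summed to 434 to 852 CPM in GN_captopril, 862 to 1278 CPM in GN_water, 110 to 155 CPM in Control_captopril and 135 to 140 CPM in Control_water. Of 6 tubular injury markers 5 rose, with sums of 999 to 1303 CPM in GN_captopril, 4196 to 4515 CPM in GN_water, 2676 to 3142 CPM in Control_captopril and 1174 to 1253 CPM in Control_water. The injury sums of GN_captopril and Control_water overlapped, and those of Control_captopril were above both. In GN_captopril against Control_water 3 of the 6 rose and 0 fell (1 fell at an unadjusted p under 0.05 and by DESeq2). GN_water, where Kl, Vdr and Pth1r were lowest, thus had the highest leukocyte and injury sums. The part of leukocytes and injured tubules in the changes of the 10 genes was not tested.

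Further genes of the same pathways were read from 5 lists. Of 14 tested calcium and magnesium transport genes, 8 fell and 1 rose in GN on average, with a median log2 fold change of -0.20, where 14.6% of all genes fell and 16.3% rose. Between groups with the same sex-linked markers, 8 fell and 2 rose in GN_water against Control_captopril, and 2 fell and 0 rose in GN_captopril against Control_water (0 rose also at an unadjusted p under 0.05 and by DESeq2). In GN_water against Control_water, with unlike markers, 4 fell and 6 rose. In GN_captopril against Control_captopril 9 fell and 0 rose, where 19.3% of all genes fell and 20.5% rose. The controls alone differed too, with 8 higher and 0 lower in Control_captopril against Control_water (15.4% and 17% of all genes). The 0 counts held at an unadjusted p under 0.05 and by DESeq2. In GN on average Slc8a1, the basolateral sodium-calcium exchanger, fell by 0.90 ± 0.10 (adjusted p = 1.91e-05, edgeR). It averaged 63.2 ± 7.39 CPM in GN_captopril and 93.4 ± 5.14 CPM in GN_water, against 185 ± 18.5 CPM in Control_captopril and 110 ± 25.8 CPM in Control_water. Trpm6, the magnesium channel of the distal convoluted tubule, fell by 0.76 ± 0.09, Calb1, the calcium buffer calbindin, by 0.72 ± 0.12, and Egf, a growth factor that stimulates magnesium uptake, by 0.58 ± 0.09 (adjusted p = 2.62e-05, 0.000767 and 0.000345, edgeR). Of these 4, Slc8a1 and Egf passed in GN_captopril against Control_water as well (-0.81 and -0.48), whereas Trpm6 was at -0.21 (adjusted p = 0.313, edgeR) and Calb1 at -0.37 (adjusted p = 0.194, edgeR) there. Of 11 tested genes of vitamin D uptake and metabolism, 4 fell and 1 rose in GN on average, with a median of -0.16. In GN_water against Control_captopril 4 fell and 1 rose, and in GN_captopril against Control_water 0 passed (1 fell and 0 rose at an unadjusted p under 0.05, and 0 passed by DESeq2). Those that fell included Lrp2 and Cubn (by 0.25 ± 0.06 and 0.30 ± 0.06), which encode the receptors megalin and cubilin that take up filtered vitamin D with its binding protein. Their adaptor Dab2 fell by 0.25 ± 0.04, and Rxra, the partner of Vdr on DNA, by 0.16 ± 0.04 (adjusted p from 0.000604 to 0.0113 for these 4, edgeR).

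Of 12 phosphate transport genes and regulators, 2 rose and 3 fell in GN on average, with a median of -0.01. In GN_water against Control_captopril 4 rose and 4 fell, and in GN_captopril against Control_water 1 rose and 1 fell. Stc2, a secreted protein known to lower phosphate transport in cells, rose by 0.81 ± 0.10 to 3.65 ± 0.181 CPM in GN_captopril and 8.63 ± 0.839 CPM in GN_water, against 3.91 ± 0.218 CPM in Control_captopril and 2.63 ± 0.343 CPM in Control_water (adjusted p = 4.21e-05, edgeR). Slc34a2, a phosphate cotransporter best known from lung and gut, rose by 0.49 ± 0.13, while Enpp1, which makes pyrophosphate, and Pdzk1, a scaffold that binds Slc34a1, fell by 0.15 ± 0.04 and 0.13 ± 0.04 (adjusted p = 0.0105, 0.0132 and 0.0192, edgeR). Of 14 tested FGF23 signalling genes, 2 rose and 1 fell, with a median of -0.00, where 30.9% of all genes were called. Egr1, an early response gene to FGF23, rose by 1.04 ± 0.24, Fgfr3 rose by 0.18 ± 0.06 and the adaptor gene Frs2 fell by 0.23 ± 0.06 (adjusted p = 0.00494, 0.028 and 0.0077, edgeR). Fgfr3 was at -0.19 in GN_water against Control_captopril (adjusted p = 0.0904, edgeR) and rose by 0.54 in GN_captopril against Control_water (adjusted p = 0.00127, edgeR). Of this list, 2 genes rose and 1 fell in GN_water against Control_captopril. In GN_captopril against Control_water, 1 rose and 0 fell (1 fell at an unadjusted p under 0.05 and 0 by DESeq2). Of 11 tested parathyroid hormone signalling genes, 2 rose and 2 fell, with a median of -0.04. In GN_water against Control_captopril 3 rose and 2 fell, and in GN_captopril against Control_water 1 fell, Adcy6. Arrb2, which encodes an arrestin that turns receptors off and is also abundant in leukocytes, rose by 0.68 ± 0.09 and Rgs2, a regulator of G proteins, by 0.41 ± 0.09. Adcy6, an adenylyl cyclase, fell by 0.32 ± 0.05 and Gna11, a G protein subunit, by 0.11 ± 0.03 (adjusted p from 7.22e-05 to 0.0132 for these 4, edgeR).

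The genes whose log2 CPM followed Kl most closely over the 12 libraries were Zc3h7b (Pearson r = 0.992), Slc10a5 (0.981), Nbr1 (0.979), Adam9 (0.971) and Fbp1 (0.969). Slc10a5 averaged 43.4 CPM in GN_captopril, 23.9 CPM in GN_water, 43.3 CPM in Control_captopril and 51.6 CPM in Control_water. Those nearest to Cyp24a1 were Fuk (0.941), Nab1 (0.894), Itfg2 (0.886), Rnf26 (0.875) and Gak (0.875). The 12 points share group, depth and sex-linked markers within groups, and the highest of 14618 values are high by selection, so the coefficients only describe these libraries.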

How the data were processed

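RNA from kidney cortex was measured in 12 libraries of stranded mRNA sequencing, in 4 groups of 3 taken from the labels. The authors deposited estimated counts per gene symbol, not scaled for depth. Of the entries 86.4% were whole numbers, and all were rounded before testing. Per the submitters' processing notes, Bowtie2, Partek and the mm10 build were used; versions, annotation and the strand setting of the counting are not given in these sources. RPKM values also deposited by the authors were not used. Pth1r had counts that were not whole.

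Totals were 14.2 to 22.8 M (mega) counts a library. Genes were kept with filterByExpr (minimum count 10, minimum total 15), which left 14618. They were scaled by TMM, and 1 quasi-likelihood model with a mean per group was fitted to all 12 libraries (edgeR 4.0.16 with limma 3.58.1 in R 4.3.3). P-values (two-sided) of 9 comparisons were adjusted with Benjamini-Hochberg across the 14618 genes, at 0.05. SEs came from the estimate and its F statistic. Levels are edgeR CPM, and spreads are SD over 3 libraries. Figures used matplotlib 3.10.9 under Python 3.11.15. Between libraries of a group, chi-square per degree of freedom was 5.32 to 14.5, so none repeated another. The tests were checked on simulated counts.

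The 10 genes, the lists and the comparisons were chosen with earlier results of these data known. All 10 genes were named in every comparison, and of each of 5 pathway lists up to 4 genes past the threshold in the GN average by smallest adjusted p. Alternatives were other scalings, no filter, DESeq2 1.42.0, leaving out libraries, fitting only the groups compared and a block for title number. Gene positions are from GENCODE M21 on GRCm38, which has mm10 coordinates.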

Additional observations from a re-analysis of the deposited data

Results flagged for a closer look

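For all 10 genes the change in GN differed between the drink labels by a test of that difference itself (edgeR, n = 3 libraries in each of 4 groups). The GN change under captopril minus the GN change under water, on the log2 scale, was 0.83 for Kl, 2.65 for Cyp24a1, 1.45 for Cyp27b1, 0.87 for Vdr, 1.33 for Slc34a1, -0.97 for Slc34a3, 0.63 for Slc20a2, -1.24 for Trpv5, 0.71 for Pth1r and -0.67 for Casr. Adjusted p ran from 1.17e-06 for Slc34a1 to 0.0421 for Cyp27b1. DESeq2 called 9 of the 10 (6 positive and 3 negative), all but Cyp27b1, and Casr and Cyp27b1 each lost the call without any of 7 of the 12 libraries. Of all genes tested 50.7% passed in this comparison. The groups on its positive side carried Y-linked transcripts and had the higher Ren1 levels, and those on its negative side carried Xist. An interaction of disease with drink, these markers and a drink other than labelled cannot be told apart.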

How the results depend on the processing

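No gene of the 10 changed direction in a called comparison under any alternative run. Over all comparisons and alternatives, 1553 values of single genes kept their side of the threshold, 71 lost and 56 gained a call. All 5 calls of the GN average held without each library in turn (5 to 6 calls). Counts past 1.5 times the reported one, up or down, were these. GN_water against Control_captopril had 5 calls and 3 to 6 without 1 library. GN_captopril against Control_water had 1 call and 0 to 2 without 1 library, 0 without both libraries rich in adrenal transcripts, 0 with only the 2 groups in the fit and 2 by DESeq2; its count over all genes was 1765, and 968 to 1708, 938 and 951 in the first 3 of these. GN_captopril against GN_water had 8 calls and 5 to 9 without 1 library. Within that bound, leaving out 1 library gave 5 to 8 calls (7 reported) in GN_water against Control_water, 4 to 7 (6) in GN_captopril against Control_captopril, 4 to 5 (4) in Control_captopril against Control_water and 8 to 10 (10) in the difference of GN changes. The captopril average had 1 call and 0 to 2 without 1 library, 2 without both adrenal-rich libraries, 2 by DESeq2 and 2 with the replicate block; over all genes it had 952, and 523 to 1471 without 1 library. The cause of these moves was not tested.

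Deviations of same-numbered libraries from their group means correlated between -0.235 and 0.236 over 18 pairs. No strong pairing by title number was seen, but with 3 libraries per group a weak one cannot be judged. With the replicate block, calls were gained by Trpv5 in the GN average (adjusted p = 0.0251), GN_water against Control_captopril (0.0295) and GN_water against Control_water (0.0452), by Slc34a3 (0.0436) and Casr (0.0491) in GN_captopril against GN_water and by Kl in the captopril average (0.0395), and Slc20a2 in GN_water against Control_captopril (0.0506) and Cyp27b1 in the difference of GN changes (0.0501) lost theirs.

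Scaling by library totals alone moved the median of all genes by 0.20 in GN_water against Control_water, -0.14 in GN_captopril against GN_water, 0.11 in Control_captopril against Control_water and -0.26 in the difference of GN changes (log2). The share of calls that were higher became 78.2% against 52.7% in the GN average, 77.8% against 56.2% in GN_water against Control_captopril, 79.1% against 58.4% in GN_captopril against Control_water, 81.1% against 53.4% in GN_water against Control_water, 40.9% against 51.6% in GN_captopril against Control_captopril, 22.4% against 43.5% in GN_captopril against GN_water, 72% against 47.5% in Control_captopril against Control_water, 38.4% against 48.7% in the captopril average and 23.1% against 46.5% in the difference of GN changes.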
